A study of Mus musculus with 4 samples.

Results

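The CCN genes and the YAP-TEAD genes of cultured rib chondrocytes were compared between Senp6-Mut and WT samples. The 10 members were taken by gene symbol: Cyr61, Ctgf, Nov, Wisp1 and Wisp2 of the CCN family, together with Ankrd1, Amotl2, Lats2, Yap1 and Tead1. They are 10 of the 18298 genes listed with a read in at least 1 sample, and all 10 passed the filter on low counts that left 14123 genes for testing. The symbols are old ones, and Cyr61, Ctgf, Nov, Wisp1 and Wisp2 are now called Ccn1 to Ccn5.

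Chondrocytes were cultured from the rib cartilage of C57BL/6 embryos at E18.5 and sequenced at passage 1, as 2 Senp6-Mut and 2 WT samples. All 4 samples carry the floxed Senp6 allele, and Senp6-Mut samples also carry Dermo1-Cre, whereas the WT samples (Senp6f/f) carry no Cre. Dermo1-Cre deletes in mesenchymal progenitors of cartilage and bone, so cells of other origins in a culture keep the gene. The labels do not say whether a sample is 1 embryo or a pool, and the p-values then measure the spread between these samples alone.

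CCN proteins are secreted into the matrix, where they bind integrins, proteoglycans and growth factors and tune how cells respond to them. Ctgf and Cyr61 are textbook targets of YAP and TAZ, cofactors without a DNA-binding domain that act through the TEAD factors. The Hippo kinases LATS1 and LATS2 phosphorylate YAP and TAZ and keep them out of the nucleus, while cell spreading, matrix stiffness and actin tension favour their entry. In cartilage CTGF is needed for growth plate organisation and matrix production, and YAP restrains chondrocyte maturation.

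TEAD factors bind the letters GGAATG, read as CATTCC on the opposite strand. RefSeq promoter windows (GRCm38.p6, 250 bases before to 50 bases after the start site) were on hand for 5 of the 10 members, in 6 windows because Lats2 had 2. Those of the YAP-TEAD target genes Cyr61, Ankrd1 and Amotl2 are shown because their levels were higher in both mutant samples, with every TEAD match in capitals. The Cyr61 window is chr3:145649936-145650235, that of Ankrd1 is chr19:36119795-36120094, both on the minus strand, and that of Amotl2 is chr9:102717554-102717853 on the plus strand.
Cyr61: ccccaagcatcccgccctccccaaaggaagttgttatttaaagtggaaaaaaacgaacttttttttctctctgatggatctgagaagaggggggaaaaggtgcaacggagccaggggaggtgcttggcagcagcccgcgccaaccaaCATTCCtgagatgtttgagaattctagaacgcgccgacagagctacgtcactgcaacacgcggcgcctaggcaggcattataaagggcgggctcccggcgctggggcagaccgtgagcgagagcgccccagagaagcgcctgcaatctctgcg
Ankrd1: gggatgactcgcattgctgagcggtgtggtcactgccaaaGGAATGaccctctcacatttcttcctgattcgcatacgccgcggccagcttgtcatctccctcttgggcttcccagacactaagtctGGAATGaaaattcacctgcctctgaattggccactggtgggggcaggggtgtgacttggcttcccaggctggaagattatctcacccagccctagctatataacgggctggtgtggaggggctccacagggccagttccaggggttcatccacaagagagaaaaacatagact
Amotl2: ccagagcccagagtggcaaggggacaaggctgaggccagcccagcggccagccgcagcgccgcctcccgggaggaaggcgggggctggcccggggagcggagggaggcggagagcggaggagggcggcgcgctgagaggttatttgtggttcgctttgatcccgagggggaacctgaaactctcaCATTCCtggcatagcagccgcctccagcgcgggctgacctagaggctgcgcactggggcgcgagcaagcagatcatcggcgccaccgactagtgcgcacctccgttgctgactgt

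The Cyr61 match began 103 bases before the start site and the Amotl2 match 65 bases before it, both as CATTCC. Ankrd1 held 2 matches, both as GGAATG, beginning 210 and 123 bases before the start site. Yap1 had a match 141 bases before its start site, and the upstream Lats2 window had a match inside the first bases of the transcript. A TEAD match thus stood in 5 of 6 member windows, and in 14.7% of all 32851 windows of the same length. At least 2 matches, as in Ankrd1, were found in 1.36% of all windows. The CArG box, the site of the serum response factor, was in none of the 6 member windows and in 1.63% of all windows. The members were chosen by name as CCN and YAP-TEAD genes, and not all had a window, so these shares are no test of enrichment. With 6 windows, the absence of so rare a box says little. A match describes the letters and is not evidence of binding.

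The reads counted on genes were between 21015873 and 30994579 per sample. Senp6 itself had an RPKM (the reads of a gene scaled by its length and by the reads counted on all genes) of 10.8 and 18.0 in WT replicates 1 and 2 and of 12.0 and 8.07 in Senp6-Mut replicates 1 and 2, so the groups overlapped. The count covers the whole gene, including exons outside the deleted part. The WT samples differed more from each other than the mutant samples did, with a biological coefficient of variation of 0.208 against 0.122. Col2a1 and Sox9 were read in every sample, but Col1a1, the collagen of bone and fibrous tissue, had the higher RPKM, 3311 to 7253 against 334 to 659 for Col2a1. Xist was read 11354 times in Senp6-Mut replicate 2 and at most 5 times elsewhere, so embryo sex differed within the mutant pair.

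The genotypes were compared with the quasi-likelihood test of edgeR on the counts, with Benjamini-Hochberg adjustment over the 14123 genes and a threshold of 0.05. No member passed it in either direction, against 0.0% of all genes higher and 0.0% lower in the mutant. At an unadjusted p under 0.05, 4 members were higher (Cyr61, Ctgf, Ankrd1 and Amotl2; 9.29% of all genes) and 1 was lower (Wisp2; 6.28%). DESeq2 called Ctgf and Cyr61 higher and no member lower, against 3.07% and 1.86% of all genes. On the deposited RPKM, limma called 0 genes with a pseudocount of 1 and 0 with a pseudocount of 0.1. Both mutant samples lay above both WT samples for 6 of 10 members, as for 28.3% of all genes, and below them for 1 of 10, as for 19.2%. With 2 samples against 2, the smallest p an exact permutation test allows for any member is 0.333.

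**Figure D1:**
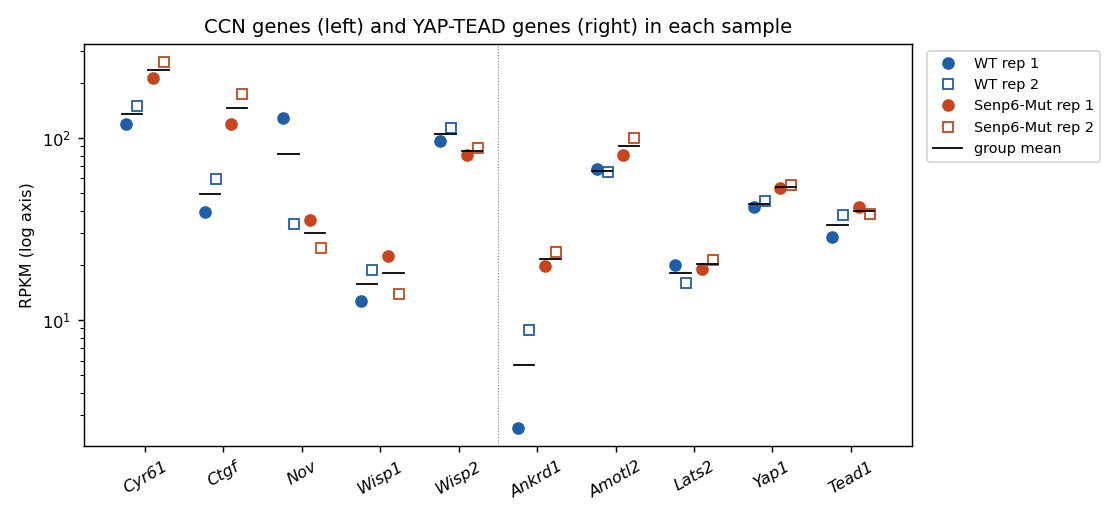
RPKM (log axis) of each member in the 4 samples, with blue points for WT, red points for Senp6-Mut, filled circles for replicate 1, open squares for replicate 2 and bars for the group means (n = 2). The mutant points of Ctgf, Cyr61 and Ankrd1 lie above both WT points, and the 2 WT points of Nov, at 129 and 33.8, are far apart.

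Ctgf (Entrez Gene 14219), the CCN2 growth factor cofactor of cartilage and fibrosis, had an RPKM of 39.5 and 59.3 in the WT samples and of 120.0 and 174 in the mutant samples. Every mutant value was above every WT value, and the lower mutant value was well above the higher WT value. The means were 147 ± 38.5 (SD, n = 2) and 49.4 ± 14.0 (SD, n = 2), and the log2 fold change was 1.53 (SE 0.24, edgeR adjusted p = 0.0833). DESeq2 gave 1.52 (DESeq2 adjusted p = 4.93e-08). In GENCODE the exons of Ctgf overlap those of an antisense transcript, Gm15270. Whether the counting used strand is not stated, so reads of the pair cannot be told apart.

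Cyr61 (Entrez Gene 16007), the CCN1 integrin ligand, had the highest mean RPKM of the members in both genotypes, although Nov was above it in WT replicate 1. Its RPKM was 119.6 and 151 in the WT samples and 215 and 261 in the mutant samples, again without overlap. The log2 fold change was 0.78 (SE 0.16, edgeR adjusted p = 0.0999), a 1.71-fold difference, and DESeq2 gave 0.76 (DESeq2 adjusted p = 0.00113). Ctgf differed by more than Cyr61, and the ratio of Ctgf to Cyr61 RPKM was 0.33 and 0.393 in the WT samples against 0.557 and 0.668 in the mutant samples. A looser level than the threshold, an adjusted p under 0.1, was also read. Ctgf and Cyr61 met it, and edgeR placed 1.52% of all genes higher and 0.496% lower in the mutant. Cyr61 missed it with RLE size factors (edgeR adjusted p = 0.102) and with 10 counts in every sample (edgeR adjusted p = 0.11). With limma at a pseudocount of 1, both genes missed it (limma adjusted p = 0.137 for Cyr61 and 0.108 for Ctgf). At a pseudocount of 0.1, Ctgf met it (limma adjusted p = 0.0866) and Cyr61 missed it (limma adjusted p = 0.121).

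Nov, the CCN3 protein that counteracts several CTGF effects in cartilage cells, varied mainly between the WT samples. Its RPKM was 129 in WT replicate 1 and 33.8 in WT replicate 2, and 35.3 and 25.0 in the mutant samples. WT replicate 1 stood alone, and WT replicate 2 lay between the mutant samples. The log2 difference between the WT replicates was 1.93, larger than for 99.5% of the genes tested, whose median was 0.26. The fitted log2 fold change of -1.49 (SE 0.62, edgeR adjusted p = 0.335) became -0.18 without WT replicate 1 and -2.19 without WT replicate 2. The tested osteoblast markers were also higher in WT replicate 1 than in WT replicate 2, but by differing amounts. Ibsp, bone sialoprotein, had the widest log2 gap among them, with an RPKM of 70.7 and 16.7 in the WT samples. Runx2 was nearly even, with 14.2 and 13.3. In the mutant samples Ibsp had 4.62 and 11.8, so its order within the mutant pair was opposite to that of Nov. The part of osteoblasts in the Nov values was not tested.

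Wisp2, the CCN5 protein that lacks the C-terminal cysteine knot of its relatives, had an RPKM of 96.2 and 113 in the WT samples and of 80.8 and 88.6 in the mutant samples. The mutant values were below both WT values by a small margin, and the log2 fold change was -0.35 (SE 0.13, edgeR adjusted p = 0.268). Wisp1, the CCN4 protein first described as a WNT1-induced gene, had an RPKM of 12.7 and 18.9 in the WT samples and of 22.5 and 14.0 in the mutant samples. These values overlapped, with a log2 fold change of 0.18 (SE 0.27, edgeR adjusted p = 0.813) that turned to -0.06 without WT replicate 1 and to -0.22 without Senp6-Mut replicate 1. Wisp3, the CCN6 gene and not among the members, was close to unread, with 10 to 14 reads per sample. The exact Poisson 95% intervals of its RPKM, which cover counting error only, ran from 0.208 to 0.703 in WT replicate 1 and from 0.12 to 0.459 in Senp6-Mut replicate 2.

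The make-up of the CCN transcripts therefore differed between the samples. Summed over the 6 CCN genes the RPKM was 397 and 376 in the WT samples and 474 and 564 in the mutant samples. Ctgf made up 9.93% and 15.8% of this sum in the WT samples and 25.3% and 30.9% in the mutant samples. Wisp2 made up 24.2% and 30.1% against 17.0% and 15.7%. Cyr61 made up 30.1% and 40.1% against 45.4% and 46.4%. Nov was the largest part of the sum in WT replicate 1, with 32.4%, and a small part elsewhere, with 4.44% to 8.98%.

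Ankrd1 (Entrez Gene 107765) encodes a titin-binding ankyrin repeat protein that also acts in the nucleus, and is widely used as a readout of YAP. Its RPKM was 2.56 and 8.78 in the WT samples and 19.8 and 23.6 in the mutant samples, from 95, 405, 1081 and 1177 reads. The mutant values were close together and above both WT values, which were themselves far apart. The exact Poisson 95% interval was 2.07 to 3.13 in WT replicate 1 and 7.94 to 9.68 in WT replicate 2, so counting error did not span the gap. The log2 fold change was 1.89 (SE 0.47, edgeR adjusted p = 0.14, DESeq2 adjusted p = 0.163). It was 1.28 without WT replicate 1 and 2.98 without WT replicate 2.

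Ankrd1 is also a striated muscle gene. Of 14 tested skeletal muscle markers, 13 had a positive log2 fold change, as had 7262 of all 14123 genes. The other, Ckm, had a negative one (-1.49), and no marker passed the edgeR threshold. The summed RPKM of 14 muscle markers was 119.8 and 39.0 in the WT samples and 204 and 229 in the mutant samples, and the median log2 fold change of these genes was 1.39. This median was 3.00 without WT replicate 1 and 0.58 without WT replicate 2. Both mutant samples were above both WT samples for 10 of 14, against 28.3% of all genes. At an unadjusted p under 0.05, 6 were higher and 0 lower (9.29% and 6.28% of all genes). DESeq2 called 2 higher (3.07% of all genes). Des, the muscle intermediate filament desmin, had an RPKM of 16.9 and 10.5 in the WT samples and of 42.6 and 41.9 in the mutant samples. Myod1, the muscle determination factor, had 1.80 and 0.537 against 4.30 and 9.30. Myog, the myogenin gene, had 5.11 and 1.31 against 8.57 and 14.7, and Actc1, a sarcomeric actin, had 15.8 and 4.60 against 36.5 and 39.5. Within the WT pair the order was opposite: the 4 muscle genes were higher in replicate 1, and Ankrd1 was higher in replicate 2. The ratio of Ankrd1 to Des RPKM was 0.152 and 0.834 in the WT samples and 0.464 and 0.564 in the mutant samples. The part of muscle cells in the Ankrd1 values was not tested.

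**Figure D2:**
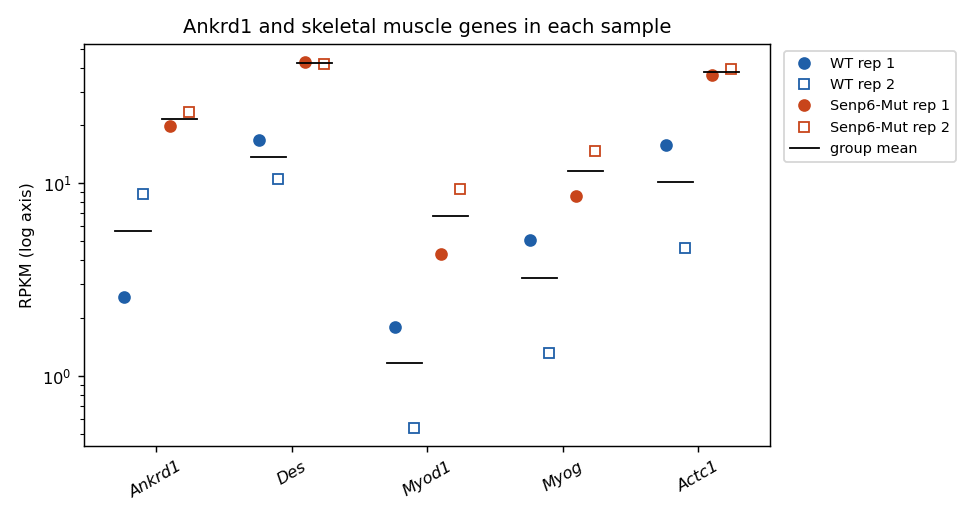
RPKM (log axis) of Ankrd1 and 4 skeletal muscle genes in the 4 samples (symbols as in the plot of all members, bars for group means, n = 2). All 5 genes are higher in the Senp6-Mut samples, but Ankrd1 is lowest in WT replicate 1 and the muscle genes are lowest in WT replicate 2.

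Amotl2, a junctional scaffold of the angiomotin family that binds YAP and is itself a YAP target, had an RPKM of 67.3 and 65.3 in the WT samples and of 81.1 and 100.1 in the mutant samples. The mutant values were above both WT values, and the log2 fold change was 0.41 (SE 0.14, edgeR adjusted p = 0.241). Its relatives did not share this pattern of values. Amot had 19.2 and 14.8 against 12.5 and 12.8, a log2 fold change of -0.47 (SE 0.17, edgeR adjusted p = 0.251). Amotl1 had 21.5 and 23.9 against 26.2 and 21.1, with overlapping groups. Amotl2 was the main angiomotin transcript throughout, with 62.3% and 62.8% of the family RPKM in the WT samples and 67.7% and 74.7% in the mutant samples.

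Lats2, the Hippo kinase that YAP induces in a feedback loop, had an RPKM of 20.0 and 16.1 in the WT samples and of 19.1 and 21.4 in the mutant samples. The groups overlapped, and the log2 fold change of 0.12 (SE 0.16, edgeR adjusted p = 0.786) turned to -0.08 without WT replicate 2. Lats1 had 9.99 and 12.2 against 13.9 and 12.1, also overlapping. In GENCODE the exons of Lats2 overlap those of Gm49361 on the same strand, and how such reads were counted is not stated.

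Yap1, the cofactor itself, had an RPKM of 41.6 and 45.4 in the WT samples and of 53.0 and 55.5 in the mutant samples. The groups did not overlap, though the difference was small, with a log2 fold change of 0.28 (SE 0.12, edgeR adjusted p = 0.341). The exons of Yap1 overlap those of an antisense transcript, Gm20416, and its reads carry the same limit as those of Ctgf. Wwtr1, which encodes the paralog TAZ, had 29.7 and 28.6 against 30.4 and 27.0, a log2 fold change of -0.06 (SE 0.14, edgeR adjusted p = 0.869). Yap1 thus made up 58.4% and 61.4% of the summed RPKM of the pair in the WT samples and 63.5% and 67.3% in the mutant samples.

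Tead1, the DNA-binding partner, had an RPKM of 28.8 and 37.8 in the WT samples and of 41.7 and 38.3 in the mutant samples. Senp6-Mut replicate 2 was barely above WT replicate 2, and the log2 fold change was 0.23 (SE 0.16, edgeR adjusted p = 0.556). Without WT replicate 1 it was 0.06. Tead2 was the most abundant of the 4 TEAD genes in every sample, with 50.4 and 50.8 against 57.7 and 60.8. Tead3 had 27.3 and 23.2 against 32.0 and 34.1. Tead4 was low, with 1.49 and 2.16 against 3.01 and 3.05, and its log2 fold change of 0.69 (SE 0.24, edgeR adjusted p = 0.237) was the largest of the 4. Both mutant samples were above both WT samples for each TEAD gene, as for 28.3% of all genes. The summed RPKM of the TEAD genes was 108 and 114 against 134 and 136.

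**Figure D3:**
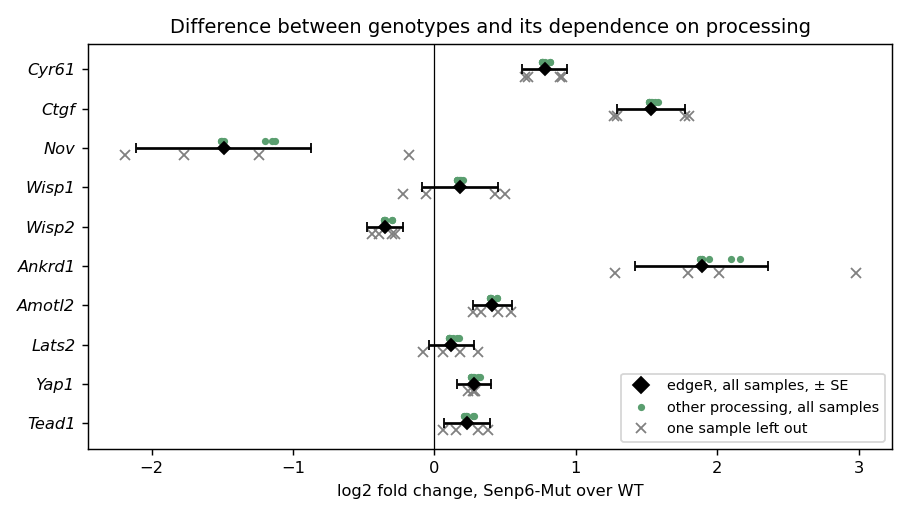
log2 fold change between Senp6-Mut and WT for each member, as the edgeR estimate with its SE (black diamonds), under the other processing choices on all samples (green points) and with each sample left out in turn (grey crosses). Ctgf, Cyr61, Ankrd1, Amotl2, Yap1 and Tead1 stay above 0 throughout, and Wisp2 stays below 0. Nov ranges from -2.19 to -0.18, and Wisp1 and Lats2 cross 0.

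By mean RPKM the order in the WT samples was Cyr61, Wisp2, Nov, Amotl2, Ctgf, Yap1, Tead1, Lats2, Wisp1 and Ankrd1. Neighbours whose sample ranges overlapped were Wisp2 and Nov, Nov and Amotl2, Ctgf and Yap1, and Lats2 and Wisp1. In the mutant samples the order was Cyr61, Ctgf, Amotl2, Wisp2, Yap1, Tead1, Nov, Ankrd1, Lats2 and Wisp1, with overlapping ranges for Amotl2 and Wisp2, Ankrd1 and Lats2, and Lats2 and Wisp1. The wide WT range of Nov, 33.8 to 129, also overlapped those of Cyr61, Ctgf, Yap1 and Tead1. By mean, Ctgf stood at rank 5 in the WT samples and at rank 2 in the mutant samples. In WT replicate 2, Nov at 33.8 lay below Ctgf at 59.3, so the WT rank of Ctgf depended on WT replicate 1. Ankrd1 was separate from, and below, every other member in the WT samples.

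The genes around the members were taken from lists of the pathway. For the lists and markers below, the shares over all tested genes serve as a base. At an unadjusted p under 0.05 they were 9.29% higher and 6.28% lower, and DESeq2 called 3.07% and 1.86%. No list was tested as a set against these shares. Of 28 further Hippo pathway genes, all tested, none passed the edgeR threshold, 6 were higher and 1 was lower at an unadjusted p under 0.05, and DESeq2 called 2 higher and 0 lower. Their median log2 fold change was 0.17, against 0.01 for all tested genes. Both mutant samples were above both WT samples for 11 of 28 and below them for 3 (28.3% and 19.2% of all genes). Ajuba, a LIM protein that restrains LATS, had an RPKM of 15.7 and 18.1 in the WT samples and of 28.0 and 30.3 in the mutant samples (log2 fold change 0.75, SE 0.13, edgeR adjusted p = 0.0873). Wwc1, the KIBRA scaffold that activates the pathway, had 1.81 and 1.48 against 2.53 and 4.38 (log2 fold change 1.02, SE 0.30, edgeR adjusted p = 0.187). The median was 0.06 without WT replicate 1.

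A list of known YAP/TAZ targets, without the members, gave 17 tested genes with a median log2 fold change of 0.11. Ptpn14 stands both in this list and in the Hippo list. None passed the edgeR threshold, 4 were higher and 1 was lower at an unadjusted p under 0.05, and DESeq2 called 2 higher and 1 lower. Both mutant samples lay above both WT samples for 8 of the 17 and below them for 3 (28.3% and 19.2% of all genes). Crim1, a transmembrane BMP antagonist, had an RPKM of 13.8 and 18.8 in the WT samples and of 32.8 and 39.5 in the mutant samples (log2 fold change 1.11, SE 0.17, edgeR adjusted p = 0.0833). Nt5e, the ecto-nucleotidase CD73, had 2.90 and 4.12 against 6.43 and 6.22. F3, tissue factor, lay the other way, with 31.2 and 38.7 against 21.9 and 20.1 (log2 fold change -0.77, SE 0.15, edgeR adjusted p = 0.0961). The median of the list was -0.15 without WT replicate 2 and 0.18 without WT replicate 1, so its sign turned with the WT sample used.

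Of 18 actin and serum response factor genes, 16 had both mutant samples above both WT samples and 0 had them below. Over all genes the shares were 28.3% and 19.2%. None passed the edgeR threshold, 8 were higher and 0 were lower at an unadjusted p under 0.05, and DESeq2 called 6 higher and 0 lower. The median log2 fold change was 0.25 and stayed between 0.25 and 0.34 with each sample left out. Cnn1, the smooth muscle calponin, had an RPKM of 40.4 and 50.1 in the WT samples and of 88.6 and 84.9 in the mutant samples (log2 fold change 0.90, SE 0.14, edgeR adjusted p = 0.0833). Filip1l had 9.78 and 17.0 against 31.4 and 28.6, and Actg2, smooth muscle gamma-actin, 85.3 and 127 against 188 and 183.

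Among 13 receptors and bound factors of CCN proteins the median log2 fold change was -0.06, and it was 0.17 without WT replicate 1, 0.06 without Senp6-Mut replicate 2 and -0.19 without WT replicate 2. None passed the edgeR threshold, 4 were higher and 2 lower at an unadjusted p under 0.05, and DESeq2 called 0 higher and 1 lower. Sdc4, the syndecan co-receptor, had an RPKM of 64.2 and 106 in the WT samples and of 125 and 158 in the mutant samples. Vegfa, a growth factor bound by CTGF, had 14.6 and 20.8 against 25.8 and 25.7. Bmp4, a morphogen also bound by CTGF, had 20.9 and 12.4 against 7.52 and 9.80 (log2 fold change -0.99, SE 0.28, edgeR adjusted p = 0.172).

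**Figure D4:**
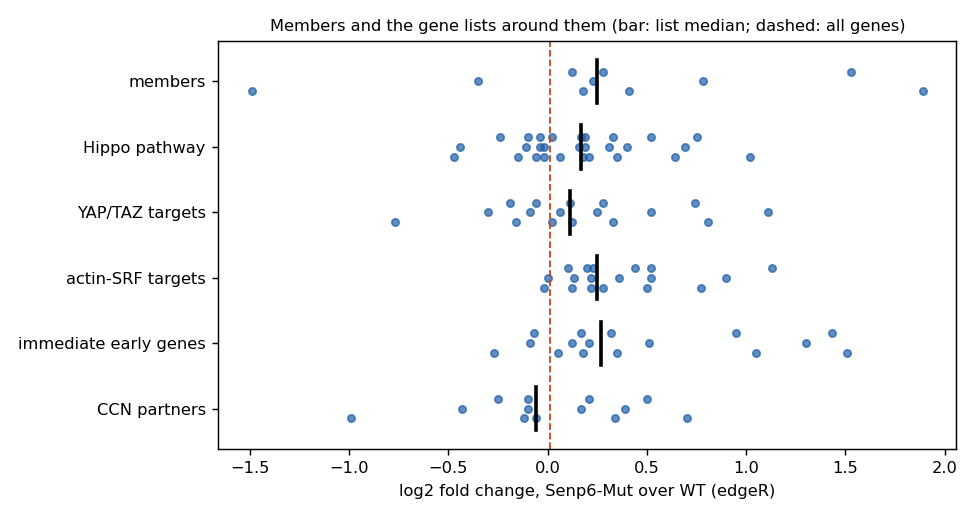
edgeR log2 fold changes (Senp6-Mut over WT) of the members and of each gene in 5 lists around them, with black bars at the list medians and a dashed line at the median of all tested genes, 0.01. The medians are 0.25 for the members and the actin genes, 0.27 for the immediate early genes, 0.17 for the Hippo genes, 0.11 for the YAP/TAZ targets and -0.06 for the CCN partners.

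Markers of chondrocytes and of other cells also differed in level between the samples. The summed RPKM of the chondrocyte markers, of which Col2a1 was the largest part, was 1044 and 1015 in the WT samples and 520.3 and 656 in the mutant samples. Of 15 tested, 12 had a negative log2 fold change, as had 6861 of all 14123 genes, and 3 did not: Col10a1 (0.65), Sox5 (0.37) and Sox6 (0.0). The log2 fold changes of the 15 ran from -3.18 to 0.65. At an edgeR adjusted p under 0.1, 7 were lower and 0 higher (0.496% and 1.52% of all genes). Col2a1, the main cartilage collagen, had an RPKM of 609 and 659 against 334 and 445, Sox9 had 45.6 and 31.3 against 24.7 and 23.1, and Acan had 16.8 and 28.2 against 16.5 and 15.1. The median log2 fold changes were -1.09 for 15 chondrocyte, -1.11 for 5 osteoblast, -0.89 for 9 macrophage, -0.47 for 6 endothelial and -0.40 for 8 fibroblast and tendon markers, and no erythroid marker had enough reads to test. The endothelial median was 0.03 without WT replicate 1, 0.19 without Senp6-Mut replicate 1 and -0.96 without WT replicate 2, so its sign turned with the sample left out. With each sample left out the osteoblast median ranged from -1.68 to -0.69 and the fibroblast and tendon median from -0.61 to -0.21. No marker passed the edgeR threshold. At an unadjusted p under 0.05, 11 chondrocyte, 3 osteoblast, 3 macrophage, 1 endothelial and 2 fibroblast markers were lower, and 0, 0, 0, 1 and 2 were higher. DESeq2 called 10, 2, 1, 0 and 1 lower, and 1 fibroblast marker higher. In such bulk cultures fewer cells of a type and less RNA per cell cannot be told apart, and the part of the cell make-up in the values of Ctgf, Cyr61 and the other members was not tested.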

How the data were processed

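RNA of 2 WT and 2 Senp6-Mut chondrocyte cultures was sequenced at BGI. For each sample the authors deposited raw counts per gene, and RPKM, which is the count scaled by the listed gene length and by the reads counted on all genes. The deposited percent of each gene covered by reads was not used. The submitters' processing notes name SAMtools and the mm9 build. The aligner, counter and annotation are not given in the sources used here. Genes without a read were given a count of 0. Promoters and overlapping genes were read from RefSeq and GENCODE tables of GRCm38, matched by Entrez Gene identifier, so coordinates are not those of the authors' build.

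Counts were tested with edgeR 4.0.16 (R 4.3.3), glmQLFit with robust estimation after TMM normalization, two-sided, keeping genes that reached 10 counts in 2 or more samples. SEs were derived from the F statistic, and overlap of groups was read in CPM. Alternatives were DESeq2 1.42.0, RLE size factors, no filter, a minimum of 10 counts in all samples, limma 3.58.1 on log2-transformed RPKM with a pseudocount of 1 or 0.1, a block for the replicate number, and each sample left out. With 1 sample left in a group, it was assumed to vary like the other. Counts of members per overlap class without each sample were added after seeing the data. Replicates differed by far more than sampling noise (chi-square over degrees of freedom 48.6 for WT and 23.7 for Senp6-Mut). Scripts were tested on simulated counts.

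The members and lists were chosen with earlier results of these data known. Named genes were the members, Senp6, Wisp3, paralogs of members, a few defining markers and, of each list, genes past the threshold or else the 3 with the largest absolute log2 fold change. For marker lists other than muscle, those 3 were left out unless a result turned on them. Member counts ranged from 95 to 14966 reads, so counting error was small beside the spread between samples.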

Additional observations from a re-analysis of the deposited data

How the results depend on the processing

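Of 110 combinations of a member and an alternative, 92 kept both the direction and the side of the threshold. In 15 the direction was kept and the threshold passed, and 3 turned direction. Most of the 15 were fits with a sample left out, where 1 group alone set the spread, so they do not show robustness. The genes called higher and lower, 0 and 0 with edgeR, were 434 and 263 with DESeq2, 225 and 61 without a filter, and 0 with RLE size factors, with at least 10 counts in every sample and with limma. With each sample left out they ranged from 68 to 1296 higher and from 37 to 1444 lower, where the groups of 1 sample hold no spread. The labels do not say whether the replicate numbers pair the samples. Across genes, WT and Senp6-Mut differences of replicate 1 from replicate 2 correlated at -0.0422, a value over all genes that cannot settle it. With the replicate numbers as a block, 84 genes were called higher and 33 lower, among the members Ctgf at 1.54 (edgeR adjusted p = 0.0365). Cyr61 passed at 0.76 with DESeq2 and 0.76 without a filter, and Ctgf at 1.52 in both. With each sample left out the log2 fold change was 0.64 to 0.90 for Cyr61, 1.27 to 1.80 for Ctgf, 1.28 to 2.98 for Ankrd1, -2.19 to -0.18 for Nov, -0.22 to 0.50 for Wisp1 and -0.08 to 0.31 for Lats2. Members past the threshold in these fits are not listed, because a group of 1 sample gives no spread of its own. The values that turned direction were -0.06 and -0.22 for Wisp1 (without WT replicate 1 and without Senp6-Mut replicate 1) and -0.08 for Lats2 (without WT replicate 2), none past the threshold, and the cause was not tested. Members with every mutant sample above every WT sample numbered 7 with any sample left out, against 6 with all. Members with every mutant sample below numbered 1 with all, 2 without WT replicate 2 or Senp6-Mut replicate 1, and 1 without either other sample. Fewer samples separate more easily, and the shares over all genes rose as well. Over all genes the share above was 28.3% with all samples, and 39.4%, 51.5%, 41.9% and 35.8% without WT replicate 1, WT replicate 2, Senp6-Mut replicate 1 and Senp6-Mut replicate 2. In the same order, the share below was 19.2%, and 36.6%, 33.1%, 25.8% and 30.8%.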

Other observations

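The immediate early genes, which serum and stress switch on within minutes, were 16 tested genes with a median log2 fold change of 0.27. Both mutant samples were above both WT samples for 12 of them and below for 1 (28.3% and 19.2% of all genes). None passed the edgeR threshold, and 6 were higher and 0 were lower at an unadjusted p under 0.05 (9.29% and 6.28% of all genes). DESeq2 called 4 higher and 0 lower (3.07% and 1.86% of all genes). Nr4a1, an orphan nuclear receptor, had an RPKM of 5.09 and 6.14 in the WT samples and of 12.6 and 20.4 in the mutant samples (log2 fold change 1.51, SE 0.24, edgeR adjusted p = 0.0833). Dusp1, a phosphatase of MAP kinases, had 5.78 and 9.09 against 15.7 and 25.7, and Ier3 had 14.5 and 21.9 against 37.3 and 54.9. As with Ctgf and Cyr61, the highest value of each of these named genes was in Senp6-Mut replicate 2 and the lowest in WT replicate 1. Not all genes of the list held this order. Fos, Jun, Junb, Egr1, Egr2 and Ier2, among others, were lowest in WT replicate 2, Fos with 2.82 and 2.51 in WT replicates 1 and 2.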
